A study of Mus musculus with 36 samples.

Results

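B cell progenitors sorted as pro-B cells, labelled Pro_B, were compared with the lymphoid-primed population LSKFlt3hi IL7R+, here LSK. The arrays were chosen by their titles and by deposit set: Pro_B replicates 1 to 3 and LSK replicates 4 to 6, which is 6 of the 36 arrays of the series. Both populations came from C57BL6 mice with an age label of 1 week and a sex label of both sexes, with no treatment or engineered allele given. Pro_B carried the sample type of a B cell progenitor and LSK that of progenitors that seed the thymus. Total RNA was extracted with Trizol, amplified with the Nugen WT-Ovation Pico system, labelled with biotin and hybridised to one-colour mouse arrays. The sort gate of the pro-B cells, the tissue of these 6 arrays and whether a sample pooled several mice are not given in the sources used here. The series text calls the replicates biological, and the labels do not say which mice they came from. The p-values therefore measure the spread between arrays, pooled over the 21 arrays of 7 populations in the deposit set used. Each population is a bulk sample, in which fewer cells of a type and less RNA per cell cannot be told apart.

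LSK cells are marrow progenitors that lack mature lineage antigens and carry Sca-1 and Kit, and those with high Flt3 and the interleukin 7 receptor have begun to express lymphoid genes while keeping progenitor ones. Commitment to the B lineage runs through the transcription factors Tcf3, Ebf1 and Pax5, which switch on the genes of the pre-B receptor and close other fates. The pre-B receptor pairs an immunoglobulin heavy chain with the surrogate light chain, encoded by Igll1 and the Vpreb genes, and signals through Cd79a and Cd79b.

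Values are RMA expression values on a log2 scale, on which a difference of 1 is a 2-fold change. They compare a gene between arrays and not different genes with each other. A gene was called when limma's Benjamini-Hochberg adjusted p over all probe sets was under 0.05 and its difference at least 1. Of 18193 genes, 708 were called between Pro_B and LSK (3.89%), of which 305 were higher (1.68% of all genes) and 403 lower (2.22%). The arrays of the populations did not overlap for 697 of the 708 called genes, against 5295 of all genes (29.1%). The median difference over all genes was 0.09. Of 34945 probe sets 1350 were called (3.86%), and no called gene had another probe set called the opposite way. Pro_B arrays correlated with one another at 0.969 to 0.974, LSK arrays at 0.984 to 0.989, and Pro_B with LSK arrays at 0.95 to 0.968.

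The labels were set against marker genes first. Igll1, the surrogate light chain gene that marks pro-B and early pre-B cells, stood at 12.47, 12.52 and 12.62 on the Pro_B arrays, against 8.35, 8.19 and 7.63 on the LSK arrays. Cd34, the sialomucin of early progenitors, stood at 3.99, 3.79 and 4.14 in Pro_B and at 9.47, 9.99 and 9.98 in LSK. Both genes separated the populations with no overlap, and in the direction the labels give. Pax5, described below, also followed the labels. Flt3 did too, but LSK was sorted on high Flt3, so this gene is no separate check of the label. Sca-1 (Ly6a) was not analysed here because no probe set used names that gene alone. Y-linked transcripts differed: Kdm5d stood at 4.18, 3.90 and 4.36 in Pro_B against 8.48, 8.61 and 9.08 in LSK, and Eif2s3y at 4.49, 4.62 and 4.11 against 8.04, 7.50 and 8.37. These genes fell by 4.57 and 3.56 (adjusted p = 0.000408 and 0.00336), while Xist, the transcript of the inactive X chromosome, stood at 10.28 to 11.68 in Pro_B and 11.87 to 12.04 in LSK. The sex of the mice behind the samples and the population cannot be told apart in this comparison.

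**Figure D1:**
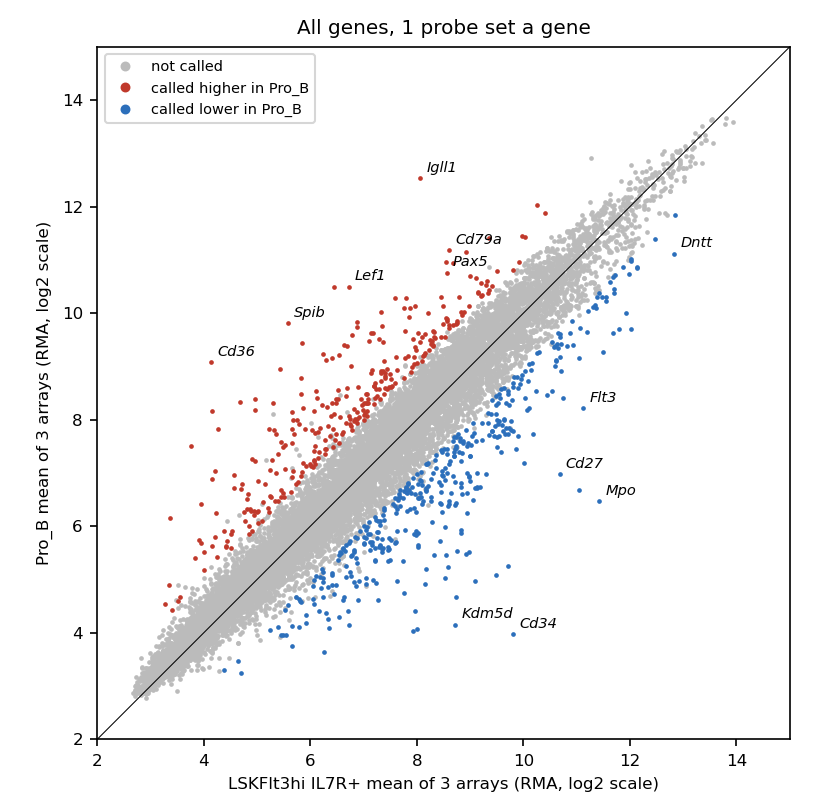
Mean expression of each gene in Pro_B (vertical axis) against LSK (horizontal axis), both RMA values on a log2 scale over 3 arrays, with the line of equal level. Red points are the 305 genes called higher in Pro_B and blue points the 403 called lower. Igll1 and Cd36 stand farthest above the line among the named genes, and Cd34 farthest below it.

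Of 29 measured genes of the pre-B receptor and its signalling 10 rose in Pro_B, 1 fell and 18 were not called (37.9% called). Over all genes 3.89% were called. The median difference of the list was 0.52, against 0.09 over all genes. Igll1 rose by 4.48 ± 0.22 (SE, adjusted p = 3e-10), a fold of 22.3, and its other probe set by 2.07 (adjusted p = 0.000398). Vpreb3, a relative of the surrogate light chain that binds nascent immunoglobulin chains, stood at 9.94, 9.96 and 9.33 in Pro_B against 7.12, 6.84 and 6.66 in LSK. Its difference was 2.87 ± 0.23 (adjusted p = 1.56e-07).

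Cd79a, a signalling chain of the receptor, stood at 11.24, 11.13 and 11.21 in Pro_B and at 8.73, 8.34 and 8.72 in LSK, a difference of 2.59 ± 0.44 (adjusted p = 0.000946). Its partner Cd79b stood at 11.32, 11.35 and 10.75 against 9.05, 8.90 and 8.82, a difference of 2.21 ± 0.22 (adjusted p = 3.58e-06). Blnk, the adaptor that couples the receptor to its kinases, rose by 1.64 ± 0.35 (adjusted p = 0.00656). In all 4 of these receptor genes the lowest Pro_B array stood above the highest LSK array.

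The smaller rises of this list were in the adaptor Pik3ap1 (1.41), which links the receptor to phosphoinositide 3-kinase, in the protein kinase C genes Prkcb (1.57) and Prkcd (1.09), and in Sh3bp5 (1.35), which encodes a binder of the kinase Btk. Kinases that start the signal were not called: Btk stood at 0.48 (adjusted p = 0.195) and Syk at 0.41 (adjusted p = 0.508). Vpreb1, the other surrogate light chain gene, was high in both populations, at 12.82, 12.98 and 12.97 in Pro_B and 11.29, 11.39 and 11.15 in LSK. Its arrays did not overlap, yet its difference of 1.64 ± 0.51 did not pass the test (adjusted p = 0.0561). The SD of Vpreb1 was 0.09 in Pro_B and 0.12 in LSK. The SE also takes in the spread within the other populations, such as DN3 thymocytes at 5.98 to 7.92. The member that fell was Rasgrp3, a Ras activator downstream of the B cell receptor, by 1.72 (adjusted p = 0.0125), and only 1 of its 2 probe sets was called. Rasgrp3 had no call without Pro_B replicate 2 (adjusted p = 0.052) or LSK replicate 4 (adjusted p = 0.06).

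The promoters of the 4 largest rises of this list with an entry are shown, since these genes moved together. Windows ran from 250 bases before to 50 after the start in RefSeq's GRCm38.p6 annotation, and 8 of the 10 risen members had one. Capitals mark matches to the E-box CAGGTG or its complement CACCTG, a site type that Tcf3 proteins can bind, and to the Ebf1-type core CCCNNGGG, which reads the same on both strands. The matches in these windows do not overlap each other. The windows lay at chr16:16863936-16864235 (minus strand), chr10:75948050-75948349 (plus strand), chr7:24897247-24897546 (plus strand) and chr19:40994172-40994471 (minus strand), each written 5′ to 3′ in the gene's direction.
Igll1: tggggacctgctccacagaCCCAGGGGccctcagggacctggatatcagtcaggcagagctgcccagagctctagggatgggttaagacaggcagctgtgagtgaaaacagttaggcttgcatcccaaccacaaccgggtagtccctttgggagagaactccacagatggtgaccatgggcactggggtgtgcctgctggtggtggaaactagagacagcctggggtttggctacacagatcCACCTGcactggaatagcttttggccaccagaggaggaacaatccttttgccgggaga
Vpreb3: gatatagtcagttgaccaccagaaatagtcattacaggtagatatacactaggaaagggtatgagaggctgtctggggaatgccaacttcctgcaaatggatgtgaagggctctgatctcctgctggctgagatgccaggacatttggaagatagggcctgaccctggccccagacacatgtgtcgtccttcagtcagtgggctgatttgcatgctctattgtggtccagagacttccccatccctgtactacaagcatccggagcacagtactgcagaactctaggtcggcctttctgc
Cd79a: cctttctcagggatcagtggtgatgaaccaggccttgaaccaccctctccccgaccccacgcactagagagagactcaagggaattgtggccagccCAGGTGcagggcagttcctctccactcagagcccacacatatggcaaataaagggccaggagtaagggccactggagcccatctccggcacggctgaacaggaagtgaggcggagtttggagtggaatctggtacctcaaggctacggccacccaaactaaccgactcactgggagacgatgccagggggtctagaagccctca
Blnk: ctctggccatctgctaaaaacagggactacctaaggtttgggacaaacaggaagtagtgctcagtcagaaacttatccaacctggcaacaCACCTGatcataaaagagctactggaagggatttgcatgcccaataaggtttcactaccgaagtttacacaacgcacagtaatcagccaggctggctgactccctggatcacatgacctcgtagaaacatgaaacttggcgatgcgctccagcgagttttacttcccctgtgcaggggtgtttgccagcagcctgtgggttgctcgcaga
The E-box was found in Igll1, Cd79a and Blnk and not in Vpreb3, and in 5 of the 8 risen members with a window, against 20.2% of all 32851 promoter windows. The Ebf1-type core was found in Igll1 among these 4 genes and in 2 of the 8, against 13.7% of all windows. A match is a run of letters and not a measured binding site, and members with several windows were counted when any held the motif.

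B lineage transcription factors moved in both directions: 10 of 33 measured members rose and 2 fell (36.4% called, against 3.89% over all genes). Their median difference was 0.07, against 0.09 over all genes. The largest rise was in Spib, an Ets factor of B cells, which stood at 9.68, 9.76 and 9.98 in Pro_B against 5.96, 5.31 and 5.43 in LSK, a difference of 4.24 ± 0.29 (adjusted p = 3.33e-08). Lef1, a Wnt pathway factor of pro-B and T cell precursors, stood at 10.15, 10.77 and 10.58 in Pro_B against 6.68, 6.70 and 6.78 in LSK, a difference of 3.78 ± 0.22 (adjusted p = 2.18e-09). Ikzf3, the Ikaros relative Aiolos, stood at 7.82, 8.26 and 8.92 against 4.71, 4.63 and 4.67, a difference of 3.67 ± 0.39 (adjusted p = 6.19e-06). Its other probe sets stood at 0.42 and 0.34 without a call (adjusted p = 0.308 and 0.224). In LSK each of these 3 genes lay below 6.8 on every array.

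Ebf1, Pax5 and Tcf3, the factors of B lineage commitment, rose by less than these 3 genes. Ebf1 stood at 11.12, 10.75 and 10.53 in Pro_B and 9.73, 9.13 and 9.65 in LSK, a difference of 1.29 ± 0.20 (adjusted p = 0.000417). Pax5 stood at 10.74, 11.10 and 10.44 in Pro_B and 8.92, 8.28 and 8.47 in LSK, a difference of 2.20 ± 0.40 (adjusted p = 0.00155). In stem cells of the same deposit set (LSKFlt3-CD48-CD150+, here HSC) Ebf1 averaged 5.77 and Pax5 5.79, below every LSK array. Tcf3, which encodes the E2A proteins, rose by 1.80 ± 0.21 (adjusted p = 2.34e-05).

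Further rises were in Id3 (2.77), an inhibitor of E proteins, in the interferon regulatory factors Irf4 (2.68) and Irf8 (1.31), which act in pre-B cells, and in Bach2 (1.02), a repressor of the plasma cell programme. Foxo1, which drives Rag gene expression, stood at 0.90 (adjusted p = 0.0169), under the 2-fold threshold, although 2 of its 4 probe sets were called higher. The octamer coactivator Pou2af1 stood at 10.09, 11.17 and 11.34 in Pro_B and 9.26, 9.32 and 9.48 in LSK, and its difference of 1.51 missed the test (adjusted p = 0.0938). The members that fell were Klf3 (-2.33), a Krüppel-like repressor with 6 of its 7 probe sets called lower, and Myb (-1.26), a factor of progenitors. Without Pro_B replicate 1, the lowest array for Myb at 9.89, its difference was -0.83, under 2-fold.

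**Figure D2:**
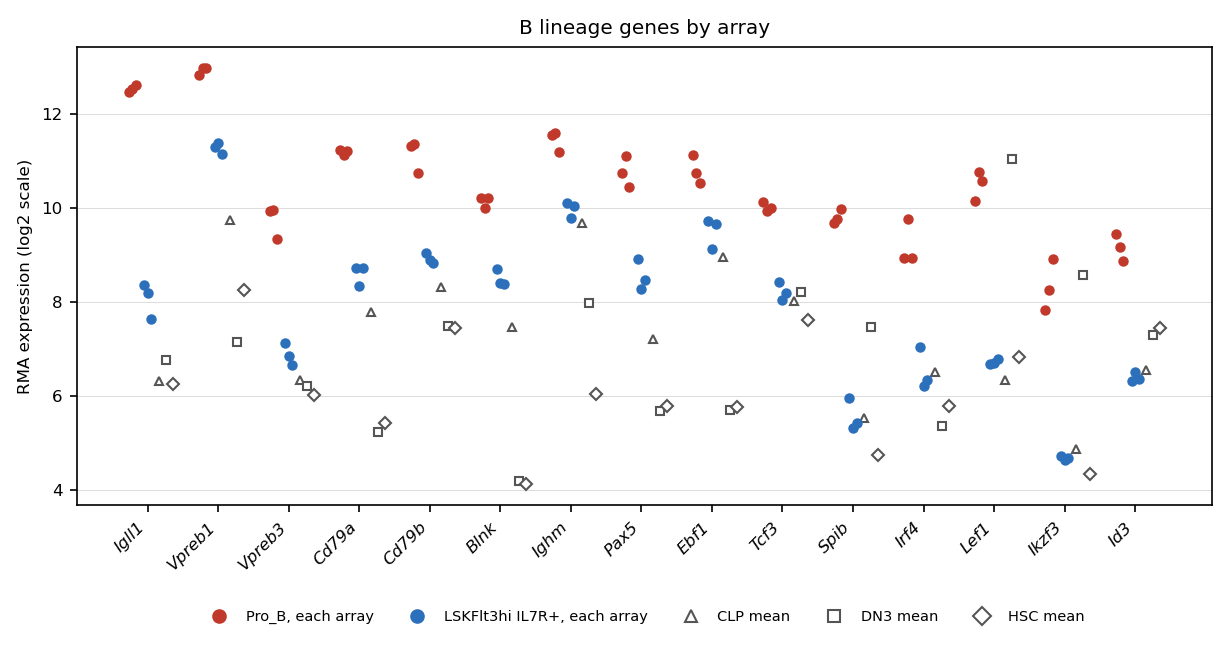
Expression of 15 B lineage genes, RMA values on a log2 scale. Red points are the 3 Pro_B arrays, blue points the 3 LSK arrays, and open symbols the means of CLP, DN3 thymocytes and HSC of the same deposit set. In every gene shown the Pro_B arrays stand above the LSK arrays, Vpreb1 included, which did not pass the test, and only for Lef1 and Ikzf3 does the DN3 mean reach the Pro_B level.

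The other populations of the same deposit set place these genes. Differences from common lymphoid progenitors (CLP, 4 arrays) and from DN3 thymocytes (3 arrays) share the Pro_B arrays with the main comparison and with each other. Pro_B and CLP differed in 1067 genes (5.86%) and Pro_B and DN3 in 1434 (7.88%). Igll1 was higher in Pro_B than in CLP by 6.23 (adjusted p = 7.72e-13) and than in DN3 by 5.77 (adjusted p = 1.48e-12). Pax5 was higher by 3.54 and 5.08 (adjusted p = 3.64e-06 and 2.97e-08), and the CLP arrays spread for this gene from 6.10 to 8.51. Both genes averaged higher in LSK than in CLP, at 8.06 against 6.31 for Igll1 and 8.56 against 7.22 for Pax5.

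Lef1 and Ikzf3 were not called between Pro_B and DN3. Lef1 differed by -0.53 between Pro_B and DN3 (adjusted p = 0.108) and Ikzf3 by -0.25 (adjusted p = 0.744). Both turn sign under an alternative: Lef1 to 0.20 with its most variable probe set and Ikzf3 to 0.01 without Pro_B replicate 1. Lig4, the ligase that joins V(D)J ends, averaged 7.03 in Pro_B, 7.99 in DN3 and 4.21 in LSK, and was not called between Pro_B and DN3 (adjusted p = 0.0672).

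Of 11 genes whose LSK level was set against HSC in both deposit sets, Pax5 was the only one to differ between the sets past the threshold. Relative to HSC of the same set, Pax5 in LSK was higher by 2.77 in the set used here and by 0.54 in the other set, a difference of 2.23 ± 0.33 (interaction adjusted p = 0.045). Cd79a was higher by 3.17 and 1.35 (interaction adjusted p = 0.0973), and Ebf1 by 3.74 and 3.44 (interaction adjusted p = 0.955). The other set holds no Pro_B array, so the Pro_B difference has a value in 1 set only.

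Immunoglobulin probe sets were looked at after their values had been seen. Of 43 such probe sets 8 were called higher in Pro_B and 0 lower, against 3.86% of all probe sets called in either direction. Ighm, the heavy chain of the pre-B receptor, stood at 11.55, 11.60 and 11.19 in Pro_B and 10.10, 9.79 and 10.03 in LSK on its called probe set, a difference of 1.47 ± 0.23 (adjusted p = 0.000366), with 1 of 11 probe sets called. Of 24 kappa and lambda light chain probe sets 7 were called higher. The largest, a probe set of Igk, stood at 7.36, 11.28 and 9.52 in Pro_B and at 4.81, 5.30 and 4.92 in LSK, a difference of 4.38 ± 0.59 (adjusted p = 8.99e-05).

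The Igk values spread more widely over the Pro_B arrays than those of Igll1 or Vpreb1, with replicate 1 lowest and replicate 2 highest. A kappa variable segment of the Igkv8 family followed the same order, at 5.69, 8.24 and 6.75 in Pro_B against 3.85, 4.48 and 4.14 in LSK, a difference of 2.74 (adjusted p = 0.00137). Another Igk probe set, which stood for the gene by its mean over the 21 arrays of the deposit set, was at 5.50, 8.95 and 6.25 in Pro_B and 5.55, 6.00 and 5.37 in LSK, without a call (adjusted p = 0.174). Immunoglobulin probe sets can share sequence, so the segments behind these values are uncertain.

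Of 32 measured B cell surface antigens 11 rose, 3 fell and 18 were not called (43.8% called). This stands against 3.89% over all genes, and the median was 0.44. Slamf7, a signalling receptor of the SLAM family, stood at 9.10, 8.71 and 8.54 in Pro_B and 5.65, 6.16 and 5.68 in LSK, a difference of 2.95 ± 0.25 (adjusted p = 3.29e-07). Bst1, the ectoenzyme CD157 of early B and T precursors, stood at 8.11, 8.23 and 7.11 against 5.08, 5.04 and 5.55, a difference of 2.60 ± 0.35 (adjusted p = 8.88e-05). Cd22, an inhibitory receptor of B cells, rose by 2.36 ± 0.22 (adjusted p = 1.55e-06), and Siglecg, its relative, by 2.10 ± 0.28. These 4 genes did not overlap between the populations.

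Smaller rises were in Fcrla (1.94), an intracellular Fc receptor-like protein of B cells, in the inhibitory Fc receptor Fcgr2b (1.29) and in Enpep (1.28), the aminopeptidase BP-1 of early B cells, which stood at 4.61, 4.0 and 4.99 in Pro_B. Ms4a1, which encodes CD20 of later B cells, rose by 1.21 and stood at 4.87 to 6.15 in Pro_B, against 4.36 to 4.47 in LSK. Without Pro_B replicate 3 the difference for Ms4a1 was 0.95, under 2-fold. The other probe set of Ms4a1 was called at 2.45 over all arrays of the fit. The members that fell were the activation antigen Cd69 (-2.06), the phosphatase Ptprc (-1.50), which encodes CD45, and the Toll-like receptor relative Cd180 (-1.04). Cd180 lost its call without Pro_B replicate 2 (-0.91) or LSK replicate 6 (-0.96). The other probe set of Ptprc stood at -0.44 (adjusted p = 0.514). The list of later B and plasma cell markers had 2 of 13 members higher, Cd22 and Ms4a1, and 0 lower (15.4% called). Its mean over the members was 6.13 to 6.26 on the Pro_B arrays and 5.84 to 5.91 on the LSK arrays.

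V(D)J recombination genes were mostly not called. Rag1, a subunit of the recombinase, stood at 11.13, 11.51 and 10.93 in Pro_B against 11.83, 11.52 and 11.90 in LSK, a difference of -0.56 ± 0.22 (adjusted p = 0.136), and Rag2 differed by -0.16 (adjusted p = 0.905). Of 16 measured members 1 rose and 2 fell (18.8% called, against 3.89% over all genes), with a median of -0.03. Dntt, the terminal transferase that adds bases at V(D)J joints, stood at 11.09, 11.52 and 10.75 in Pro_B and 12.77, 12.87 and 12.86 in LSK, a difference of -1.71 ± 0.22 (adjusted p = 6.13e-05), and all 3 of its probe sets fell. Lig4 stood at 6.78, 7.78 and 6.54 in Pro_B against 3.90, 4.54 and 4.2 in LSK, a difference of 2.82 ± 0.35 (adjusted p = 3.11e-05). Trp53bp1, a repair protein at broken ends, fell by 1.24 on 1 of its 6 probe sets, and none of the other 5 was called.

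Of 44 measured stem and progenitor regulators 13 fell in Pro_B, 0 rose and 31 were not called (29.5% called, against 3.89% over all genes). Their median was -0.38. The difference for Cd34 was -5.84 ± 0.18 (adjusted p = 3.21e-13), a fold of 57.4. Hoxa9, a homeobox factor of progenitors, stood at 7.52, 7.45 and 7.38 in Pro_B and 9.73, 9.94 and 9.92 in LSK, a difference of -2.41 ± 0.21 (adjusted p = 3.61e-07). Its cofactor Meis1 stood at 6.60, 6.96 and 6.31 against 8.86, 9.0 and 8.07, a difference of -2.02 ± 0.29 (adjusted p = 0.000156). All 3 genes were lower on every Pro_B array than on any LSK array.

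Mn1, a transcriptional coregulator of early progenitors, stood at -2.43 and the Tie2 ligand Angpt1 at -2.19. The homeobox genes Hoxa10 (-1.50) and Hoxa5 (-1.05), the chromatin organiser Satb1 (-1.49, all 5 probe sets called lower) and the haematopoietic factors Lmo2 (-1.18) and Tal1 (-1.02) were lower as well. Hmga2, the chromatin protein of fetal and neonatal stem cells, stood at 10.08, 9.58 and 9.43 in Pro_B and 12.17, 11.99 and 11.91 in LSK, a difference of -2.32 ± 0.19 (adjusted p = 1.76e-07) with all 4 probe sets called lower. Among the 11 measured fetal-type genes (18.2% called, against 3.89% over all genes) it was the only one called lower. Grb10, an imprinted growth factor adaptor, was the only one called higher (2.37, adjusted p = 0.000388). Grb10 averaged 11.08 in HSC, above both populations.

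Cytokine and growth factor receptors were lower in 7 of 35 measured members and higher in 0 (20% called, against 3.89% over all genes). Their median was -0.34. Flt3, by which LSK was sorted, stood at 8.66, 8.09 and 7.90 in Pro_B and 11.22, 11.07 and 11.07 in LSK, a difference of -2.91 ± 0.27 (adjusted p = 1.17e-06). Kit, also part of the LSK gate, stood at 6.70, 7.89 and 7.33 against 8.68, 8.75 and 8.64, a difference of -1.38 ± 0.39 (adjusted p = 0.0322). The LSK gate chose on both genes, and the gate of the pro-B cells is not given. The part of the sort in these differences was not tested. Il7r, the third gate gene among those measured, was not called, at 10.69, 10.52 and 10.51 in Pro_B and 10.95, 10.95 and 11.03 in LSK (difference -0.40, adjusted p = 0.343).

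Receptors outside the gate that fell were the interleukin 6 family subunit Il6st (-2.02, all 4 probe sets), the interleukin receptors Il1r1 (-2.01) and Il18r1 (-1.57), the interferon receptor chain Ifnar2 (-1.21) and the growth factor receptor Pdgfrb (-1.18). Il1r1 stood at 4.93, 4.23 and 4.66 in Pro_B and 7.25, 6.63 and 5.96 in LSK, so the arrays did not overlap. The call for Kit was lost without Pro_B replicate 1 (-1.08, adjusted p = 0.167) and without 4 of the other 5 arrays, with adjusted p from 0.0522 to 0.0917.

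Of 39 measured myeloid progenitor genes 12 fell in Pro_B, 2 rose and 25 were not called (35.9% called, against 3.89% over all genes). Their median was -0.20. Mpo, the peroxidase of granulocyte precursors, stood at 4.98, 5.91 and 8.51 in Pro_B and at 11.42, 11.37 and 11.46 in LSK, a difference of -4.95 ± 0.79 (adjusted p = 0.000469). The Pro_B arrays differed widely for this gene, replicate 3 being highest, while the LSK arrays lay within 0.1 of each other. Mpeg1, the pore-forming protein of macrophages, stood at 5.41, 5.18 and 5.93 against 9.26, 8.64 and 9.02, a difference of -3.47 ± 0.26 (adjusted p = 6.55e-08). The signalling adaptor Tyrobp (-2.44), the surface receptor Cd33 (-2.38) and the oxidase subunit Ncf1 (-2.18) fell too. The members that rose were the detoxifying enzyme Mgst1 (1.54) and the annexin Anxa1 (1.05, adjusted p = 0.0381). Leaving out any of the 6 arrays ended the call for Anxa1 (adjusted p = 0.0674 to 0.135). Csf1r, the macrophage growth factor receptor, overlapped between the populations at 6.35 to 7.40 in Pro_B and 6.17 to 7.96 in LSK.

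T lineage genes and Notch targets had 5 of 35 measured members lower and 1 higher (17.1% called, against 3.89% over all genes). Their median was -0.15. Cd27, a costimulatory receptor of T cells and early progenitors, stood at 7.80, 6.95 and 6.16 in Pro_B and 10.75, 10.79 and 10.49 in LSK, a difference of -3.71 ± 0.29 (adjusted p = 1.41e-07). Trbv1, a T cell receptor beta segment, stood at 6.62, 7.24 and 6.58 against 8.92, 8.97 and 8.60, a difference of -2.02 ± 0.21 (adjusted p = 4.02e-06). Its other probe set was not called (-0.48, adjusted p = 0.39). Notch1 (-1.08), the receptor that directs T cell fate, its relative Notch2 (-1.44), known for marginal zone B cells, and the T cell adaptor Lat (-1.26) fell. The other probe set of Notch2 stood at -0.55 without a call (adjusted p = 0.153). Thy1, a surface antigen of thymocytes, rose by 1.99 (adjusted p = 0.0024) and averaged 12.15 in DN3, far above both populations. Gata3, a factor of the T lineage, overlapped at 4.74 to 5.53 in Pro_B and 5.15 to 5.23 in LSK.

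**Figure D3:**
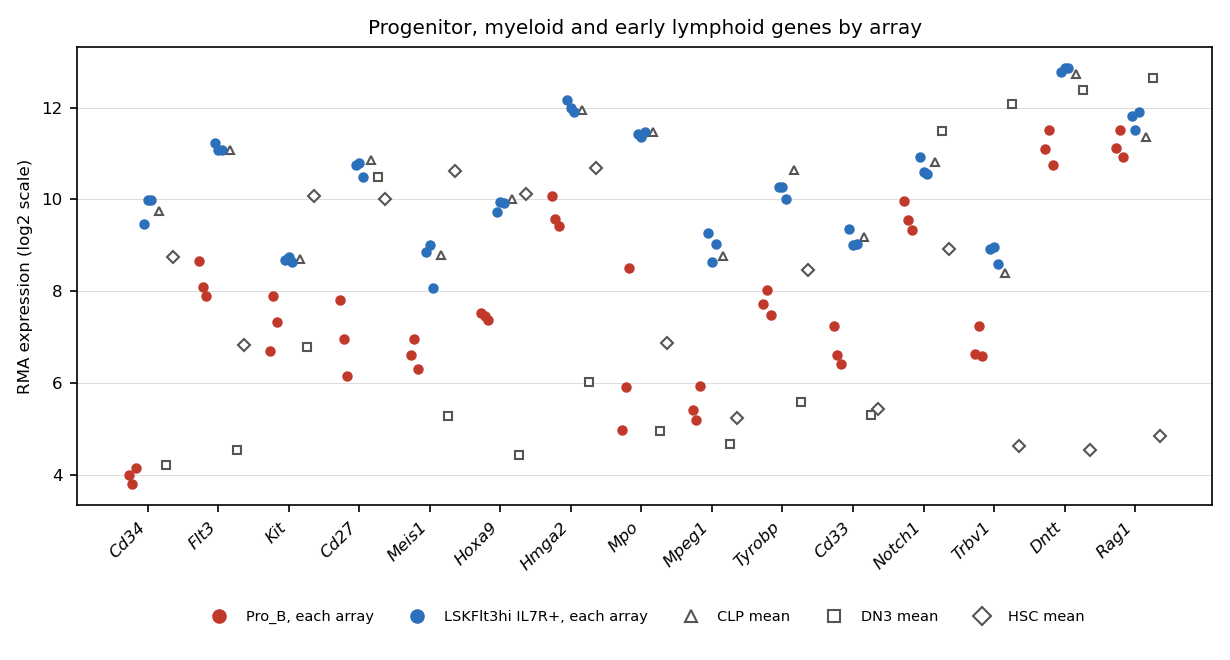
Expression of 15 progenitor, myeloid and early lymphoid genes, RMA values on a log2 scale, with Pro_B arrays in red, LSK arrays in blue and the CLP, DN3 and HSC means as open symbols. Cd34 in Pro_B lies at 3.79 to 4.14, near the DN3 mean of 4.21, while Mpo spreads from 4.98 to 8.51 over the Pro_B arrays and Rag1 stands at 10.93 to 11.51 in Pro_B and 11.52 to 11.90 in LSK.

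By limma 0 of the 39 measured mitosis and spindle genes were called, 9 were higher and 0 lower at an unadjusted p under 0.05, and their median was 0.32. Plk1, a mitotic kinase, stood at 9.43, 9.63 and 8.54 in Pro_B and 7.87, 8.45 and 8.35 in LSK, a difference of 0.98 (adjusted p = 0.0221), just under 2-fold. Tpx2, a spindle assembly factor, stood at 0.72 (adjusted p = 0.0199). Taking the probe set of Tpx2 that varied most turned this to -0.05. Among G1 regulators 4 of 25 rose and 1 fell (20% called, against 3.89% over all genes), with a median of 0.12.

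E2f2, a factor that turns on replication genes, stood at 9.77, 10.29 and 10.20 in Pro_B and 7.62, 7.65 and 8.01 in LSK, a difference of 2.33 ± 0.28 (adjusted p = 2.52e-05). Ccnd3, the D-type cyclin needed for pre-B cell expansion, stood at 10.27, 10.36 and 10.29 against 8.73, 8.33 and 8.28, a difference of 1.86 ± 0.33 (adjusted p = 0.00124). Its other probe sets stood at 1.66, called, and at -0.84 without a call (adjusted p = 0.2). The mean of its probe sets differed by 0.89, under 2-fold. Ccnd2, another D-type cyclin, fell by 1.18 on 1 of 7 probe sets, the other 6 standing at -0.33 to -0.75 without a call. The CDK inhibitors Cdkn2c (1.18) and Cdkn2d (1.10) rose, so activators and inhibitors of the cycle were both among the risen genes.

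DNA replication genes had 3 of 38 members higher and 2 lower (13.2% called, against 3.89% over all genes), with a median of 0.46. At an unadjusted limma p under 0.05 there were 19 higher and 3 lower. Cyclin E1 (Ccne1, 1.52), thymidylate synthase (Tyms, 1.23) and thymidine kinase (Tk1, 1.01) rose, and Tyms had no call when any one of 3 arrays was left out (adjusted p = 0.066 to 0.0713). A fit of the 6 arrays alone gave no call for Tyms either (adjusted p = 0.0602). The other probe sets of Tyms stood at 0.25, 0.92 and 0.69, none of them called. The helicase subunits Mcm4 (-1.51) and Mcm6 (-1.27) fell on their highest probe set, while the other probe sets stood at 0.14 for Mcm4 and at 0.08 and -0.22 for Mcm6, none of them called. On these probe sets Pro_B replicate 1 was lowest, with Mcm4 at 8.07, 8.95 and 10.48 in Pro_B against 10.33, 10.80 and 10.91 in LSK, and without it the differences were -0.96 and -0.87. Their direction therefore rests on the probe set chosen.

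The share of called members in the smaller lists stands beside 3.89% over all genes. Of 14 measured Bcl2 family genes (7.14% called), the pro-death Bak1 rose (1.17), while Bcl2 itself stood at -0.86 (adjusted p = 0.0216), under 2-fold. MHC class II genes moved both ways: the invariant chain Cd74 (1.15) and H2-Ab1 (1.10) rose, and the peptide loading genes H2-Ob (-1.85) and H2-DMa (-1.52) fell, of 11 measured (36.4% called). Glycolysis genes had a median of 0.35 and 2 of 23 lower (8.7% called), Ldhb (-1.01) and the kinase Pdk1 (-2.03, 1 of 4 probe sets). Of 21 DNA methylation and chromatin regulators (19% called) the remodeller Smarca4 rose (1.39), and Dnmt3b (-1.95), Tet1 (-1.54) and Kdm5b (-1.31) fell, but Tet1 had no call when any one of 4 arrays was left out (adjusted p = 0.0912 to 0.125) or in a fit of the 6 arrays alone (adjusted p = 0.0588). Homing and adhesion genes had 1 of 29 lower (3.45% called), Cd44 (-1.09), and heat shock and immediate early genes 1 of 25 (4% called), Zfp36 (-1.07), which had no call when any one of 4 arrays was left out (adjusted p = 0.0628 to 0.118). Leaving out 1 array also ended the call of Cd44 (-0.99 without Pro_B replicate 1). H2-Ab1 lost its call without LSK replicate 6 (0.91), Pro_B replicate 1 (0.97) or Pro_B replicate 3 (1.00 after rounding). Ldhb lost its call without Pro_B replicate 1 (-0.87) or 3 (-0.98), or without LSK replicate 4 (-0.96) or 5 (-0.98).

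**Figure D4:**
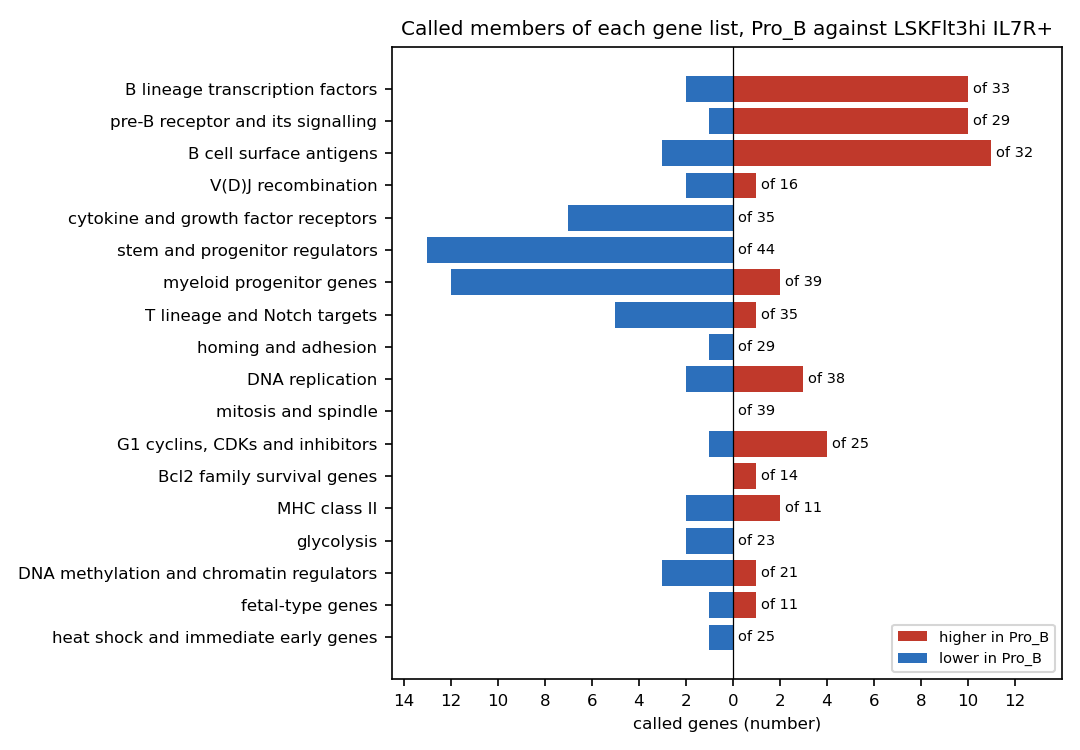
Number of genes called higher (red, right of 0) and lower (blue, left of 0) in Pro_B than in LSK in each of 18 gene lists, with the number measured beside each bar. The 3 B lineage lists at the top have 10, 10 and 11 members higher, and the stem, myeloid and cytokine receptor lists have 13, 12 and 7 lower.

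Some of the largest changes lay outside the B lineage lists. Cd36, a scavenger receptor for lipids, had the largest rise, standing at 9.11, 9.03 and 9.09 in Pro_B and 3.79, 4.30 and 4.29 in LSK, a difference of 4.95 ± 0.24 (adjusted p = 2.96e-10). It averaged 7.38 in HSC and 4.62 in CLP, so LSK lay below HSC as well. Tnnt2, a cardiac troponin gene, stood at 7.52, 7.58 and 7.41 against 3.97, 3.81 and 3.46, a difference of 3.76 ± 0.17 (adjusted p = 1.39e-10), and 2 of its 3 probe sets were called. The kinase Sgk1 (3.59), the carbonic anhydrase Car13 (3.55), alkaline phosphatase Alpl (3.52), the ubiquitin hydrolase Uchl1 (3.41), the deubiquitinase Otub2 (3.22) and the branched-chain transaminase Bcat1 (3.0) rose as well. The largest rises and falls were chosen among genes without overlap.

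Falls of that size were in Adgrl4 (-4.47), an adhesion receptor of endothelium and stem cells, the related protease inhibitors Ctla2a (-4.36) and Ctla2b (-3.46), and 9030619P08Rik (-4.39). Ctla2a averaged 6.68 ± 0.33 in Pro_B and 11.04 ± 0.05 in LSK (SD, n = 3 each). St8sia1, a sialyltransferase, fell by 4.14, Bex6 by 4.06, the prostaglandin receptor Ptger2 by 3.94, the sugar transporter gene Slc35d3 by 3.90 and the nuclear receptor Hnf4a by 3.51. Adgrl4, Ctla2a and 9030619P08Rik were also high in HSC (10.54, 12.38 and 9.30), whereas Bex6 and Ptger2 were low there (3.39 and 4.47).

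Transcripts of some other cell types differed between the populations. Among late neutrophil markers 2 of 16 measured genes rose and 0 fell (12.5% called, against 3.89% over all genes), with a median of 0.78. At an unadjusted limma p under 0.05 there were 10 higher and 0 lower. Their mean was 5.95 to 6.48 on the Pro_B arrays and 4.70 to 5.34 on the LSK arrays. S100a9, an alarmin of neutrophils, stood at 11.03, 10.45 and 10.01 in Pro_B and 5.09, 5.55 and 8.68 in LSK, a difference of 4.06 ± 1.12 (adjusted p = 0.0301), and its call was lost when any one of 4 arrays was left out (adjusted p = 0.0767 to 0.137). Stfa3, a stefin of granulocytes, rose by 4.0 (adjusted p = 0.00578). Elane, a granule protease of the myeloid progenitor list, stood at 4.08 to 4.73 in Pro_B and 3.81 to 4.50 in LSK.

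Red cell markers averaged 7.24 to 7.37 in Pro_B and 6.37 to 6.78 in LSK, with 2 of 12 higher (16.7% called, against 3.89% over all genes). These were the globin Hbb-b2 (2.96, adjusted p = 0.00866) and the anion exchanger Slc4a1 (3.03, adjusted p = 0.00615). Hba-a2, another globin, stood at 11.50 to 11.72 in Pro_B and 11.57 to 11.75 in LSK. Hbb-b2 had no call without LSK replicate 4 (adjusted p = 0.053). Among macrophage markers C1qb, a complement subunit, stood at 7.85, 3.77 and 6.86 in Pro_B against 3.22, 3.41 and 3.46 in LSK on 1 of 3 probe sets (adjusted p = 0.0166). C1qb had no call without Pro_B replicate 1 (adjusted p = 0.108) or 3 (adjusted p = 0.0514), or without LSK replicate 4 (adjusted p = 0.0604). A fit of the 6 arrays alone did not call it either (adjusted p = 0.0965). Cd163 fell by 2.87. The part of neutrophil, red cell or macrophage RNA in the other differences was not tested.

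The other marker lists gave 0 to 2 calls, and their called shares stand beside 3.89% over all genes. Of 16 natural killer and innate lymphoid genes 2 were lower (12.5%, Nkg7 and Il18r1), and of 15 dendritic cell genes 2 (13.3%, Cox6a2 and Itgax). Also lower were 1 of 13 megakaryocyte genes (7.69%, Nfe2) and 1 of 16 stromal and endothelial genes (6.25%, Pdgfrb). Of 7 double-positive thymocyte genes 0 were called (by limma, with 1 lower at an unadjusted p under 0.05). Nfe2 had no call when any one of 4 arrays was left out (adjusted p = 0.0655 to 0.167). Itgax lost its call without Pro_B replicate 1 (-0.99). The difference between the 3′ and 5′ control probe sets of Gapdh, a measure of RNA integrity, was 1.73, 1.70 and 2.08 in Pro_B and 2.42, 2.25 and 2.23 in LSK, and that of Actb -0.18 to 0.11 and -0.07 to -0.01. The part of RNA integrity in probe sets that disagree was not tested.

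**Figure D5:**
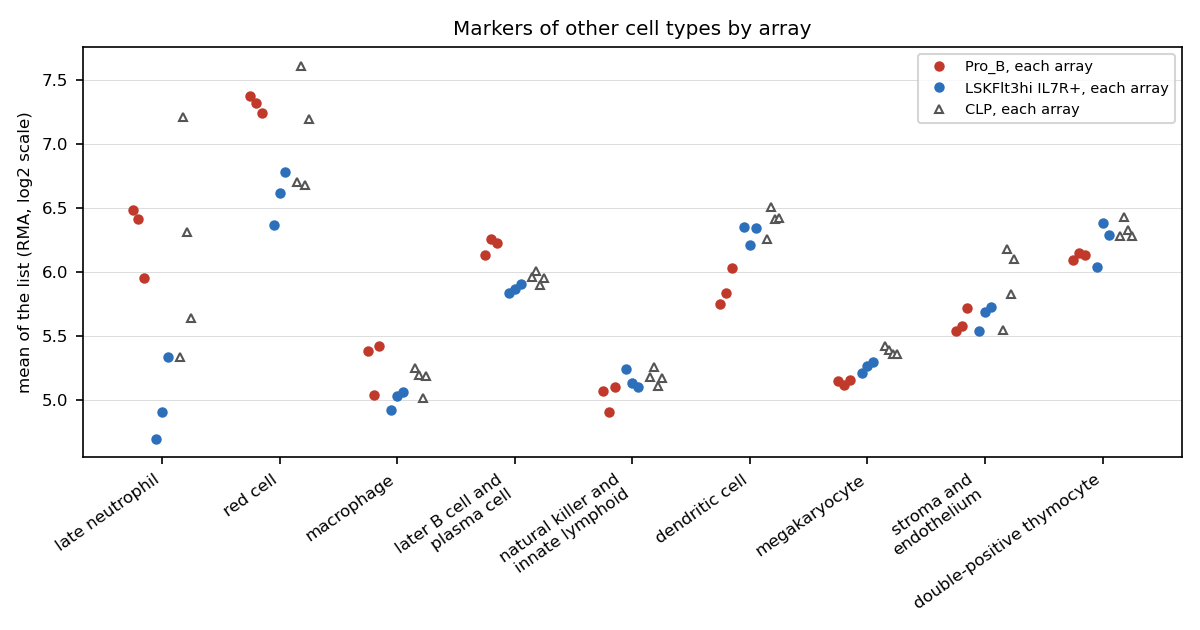
Mean level of 9 lists of markers of other cell types on each array, RMA values on a log2 scale, with Pro_B in red, LSK in blue and CLP as open triangles. The late neutrophil mean lies at 5.95 to 6.48 in Pro_B, above all LSK arrays, and the CLP arrays spread from 5.34 to 7.21; the red cell mean is also higher in Pro_B.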

How the data were processed

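Deposited values of 36 arrays were used. They are log2 expression values that the authors made with RMA, which combines background correction, normalization and probe summary, per the submitters' processing notes. RMA's version and the log base are not given in the sources used here, and the values behave as log2. The 2 deposit sets were normalized apart, judged from their levels: array medians ran from 5.12 to 5.22 in the first, with 15 arrays, and from 5.84 to 5.95 in the second, with 21. Only the second was used for the comparison. Precision is limited by the number of arrays, which carry no read depth.

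Of 45101 probe sets, 64 are controls, 34945 name 1 gene and 932 several, and those with several were left out. Each of 18193 genes was represented by its brightest probe set, by mean level on the 21 arrays. A current gene table held no entry for 204 probe sets, which kept their deposited platform symbol. The lmFit and eBayes functions of limma 3.58.1 (R 4.3.3) fitted population over the 21 arrays of 7 populations. Benjamini-Hochberg adjustment ran over all 34945 probe sets, with calls at an adjusted p under 0.05 and a difference of at least 1. The steps were tested on simulated data.

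The members, the 27 gene lists and the rule by which genes are named were chosen with earlier results of these data known. The rule names the 15 largest rises and 15 largest falls without overlap, the 4 largest called members of a list (or the 2 smallest p), the markers and gate genes, and members called against their list, 100 genes in all. Other list members are named as examples. Python 3.11.15 with pandas 2.3.3 and matplotlib 3.10.9 made the promoter scan and plots. Alternatives covered the arrays in the fit, normalization, the choice of probe set, a filter on low means, the threshold, array weights and each array left out.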

Additional observations from a re-analysis of the deposited data

Results flagged for a closer look

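Flt3 in CLP replicate 4 stood at 10.54, against 11.22, 11.23 and 11.28 in the other CLP arrays, a gap wide for the range of 4 samples by Dixon's criterion. It was the only array singled out in 35 sets of CLP values looked at, and chance singles out about 1 in 20. Pax5 differed between deposit sets in LSK minus HSC by 2.23 ± 0.33 (interaction adjusted p = 0.045), being higher in LSK on all 3 arrays of the set used here than on any HSC array. It was 1 of 11 genes looked at for this interaction.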

How the results depend on the processing

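No paired analysis was possible because the labels do not say which mice the replicates came from. Of the 95 called genes chosen by the rule, 58 stayed called under each of the 17 alternatives and 76 without each array in turn. Without a fold threshold 1581 genes were called, 821 higher and 760 lower. Tested against 1.5-fold with treat, 259 were, 108 higher and 151 lower. Leaving out each array in turn gave 550 to 937 called genes, 219 to 459 higher and 313 to 478 lower, lowest without Pro_B replicate 1 (219 higher) and highest without Pro_B replicate 3 (459 higher). Other settings gave 564 to 906. The share of called genes that were higher moved from 43.1% to 51.9% without a fold threshold. Signs turned for Tpx2 (-0.05 with its most variable probe set), and in the comparison with DN3 for Lef1 (0.20, the same setting) and Ikzf3 (-0.54 to 0.01 over the arrays left out, the highest without Pro_B replicate 1). None of these 3 differences was called, and the cause was not tested.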

Other observations

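Values of 3 further called members of the myeloid progenitor list, chosen after they were seen, follow. Nkg7 is also on the natural killer and innate lymphoid list, which had a median difference of 0.11. Of its 16 measured genes 0 were called higher and 2 lower (12.5% called, against 3.89% over all genes). Nkg7, a granule membrane protein of cytotoxic lymphocytes, stood at 5.39, 5.44 and 5.73 in Pro_B and 7.53, 7.44 and 7.09 in LSK (difference -1.83, limma adjusted p = 2.23e-06). Cst7, a cystatin of cytotoxic and myeloid cells, stood at 6.88, 6.40 and 6.39 in Pro_B and 8.33, 8.26 and 7.67 in LSK (difference -1.53, limma adjusted p = 0.000357). Plac8, a gene of myeloid and lymphoid progenitors, stood at 9.30, 9.84 and 10.86 in Pro_B and 11.92, 11.98 and 11.86 in LSK (difference -1.92, limma adjusted p = 4.79e-05). Array weights estimated by limma were 0.57, 0.86 and 0.56 for Pro_B replicates 1 to 3 and 0.93, 2.06 and 2.15 for LSK replicates 4 to 6.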
